A study of Mus musculus with 4 samples.

Results

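The Hox genes encode homeodomain transcription factors and lie in 4 clusters, Hoxa, Hoxb, Hoxc and Hoxd. A list of 38 Hox genes was read from arrays of 4 mouse embryonic stem (ES) cell cultures. Members were taken as the listed genes with a probe set annotated to that gene alone, and 33 of the 38 had such a probe set, out of 18193 genes read on the array. Hoxa6, Hoxc11 and Hoxc12 had no listed probe set, and Hoxb8 and Hoxd4 were found only on probe sets shared with a neighbouring Hox gene, so these 5 genes have no value here.

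The cultures were E14.1 ES cells of 2 genotypes, heterozygous for Sall4 (flox/-, line HET18) or labelled null (delta/-, line KO1), each with 1 array without and 1 array with fibroblast feeders. Each genotype was thus a single line, and a difference between lines cannot be told apart from one between genotypes. Every culture carried a blasticidin-resistance gene placed in the Oct3/4 locus and was grown with leukaemia inhibitory factor (LIF) and blasticidin, so Oct3/4-expressing cells are selected. Cultures without feeders grew on gelatin, and are called so below where values are listed. The feeders were blasticidin-resistant fibroblasts, whose RNA is part of the sample. There was 1 array per group, so no spread between replicate cultures was measured.

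Hox genes are expressed along the body axis in the order in which they lie in their cluster, anterior paralogues towards the head and posterior paralogues towards the tail and the limb tips. In ES cells the clusters are a classic target of Polycomb repression and carry both active and repressive histone marks. Fibroblasts, by contrast, keep a set of active Hox genes that reflects the body region from which they were taken.

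For the listed genes with a sequence table entry, the promoters differed widely in CpG content, the feature that Polycomb-bound promoters in ES cells share. The RefSeq table (GRCm38.p6) held 24 promoter windows of 300 bases, 250 before and 50 after the start, for 22 of the 38 listed genes, Hoxa6, Hoxb8 and Hoxd4 among them, which have no signal here. Their median CpG count was 14.5, against 7.0 over 32851 promoters of all genes. The 4 shown belong to a gene whose probe sets disagreed (Hoxa5), a gene higher on feeders (Hoxc4) and neighbours that were brighter in cells labelled null than in heterozygous cells on gelatin (Hoxd8 and Hoxd9). Capitals mark CpG dinucleotides, and each is written 5′ to 3′ along the gene's strand. They lie at chr6:52204538-52204837 (minus strand), chr15:103034145-103034444 (plus), chr2:74704365-74704664 (plus) and chr2:74697513-74697812 (plus), in that order.
Hoxa5: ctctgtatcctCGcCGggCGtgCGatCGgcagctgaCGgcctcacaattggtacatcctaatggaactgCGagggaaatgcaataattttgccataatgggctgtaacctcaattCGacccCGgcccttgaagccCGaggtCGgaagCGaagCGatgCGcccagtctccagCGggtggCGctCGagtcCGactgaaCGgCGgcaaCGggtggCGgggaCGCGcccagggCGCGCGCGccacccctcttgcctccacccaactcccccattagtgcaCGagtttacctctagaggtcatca
Hoxc4: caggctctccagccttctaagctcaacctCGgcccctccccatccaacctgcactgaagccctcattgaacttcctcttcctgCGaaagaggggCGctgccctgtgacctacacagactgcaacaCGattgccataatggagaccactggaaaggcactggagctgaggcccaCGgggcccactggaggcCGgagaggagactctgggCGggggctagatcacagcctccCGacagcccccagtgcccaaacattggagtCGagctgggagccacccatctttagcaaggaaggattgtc
Hoxd8: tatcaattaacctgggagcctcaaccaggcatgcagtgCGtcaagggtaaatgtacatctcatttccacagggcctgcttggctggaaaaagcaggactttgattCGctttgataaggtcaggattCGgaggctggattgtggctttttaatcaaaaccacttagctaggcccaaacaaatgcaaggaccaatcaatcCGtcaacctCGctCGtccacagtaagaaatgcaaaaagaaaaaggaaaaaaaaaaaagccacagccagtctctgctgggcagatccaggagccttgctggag
Hoxd9: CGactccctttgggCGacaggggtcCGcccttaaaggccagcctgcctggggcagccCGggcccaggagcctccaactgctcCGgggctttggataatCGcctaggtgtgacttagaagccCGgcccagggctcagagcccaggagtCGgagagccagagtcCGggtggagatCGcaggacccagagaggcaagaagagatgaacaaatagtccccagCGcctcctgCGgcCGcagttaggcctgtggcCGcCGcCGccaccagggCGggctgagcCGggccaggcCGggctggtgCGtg
The Hoxa5 window held 29 CpGs, Hoxd9 20, Hoxc4 9 and Hoxd8 6. With a ratio of observed to expected CpGs above 0.6 and a GC content above 50% as the criterion, 11 of the 24 windows (45.8%) qualified, against 33.3% of all promoters. Searched on both strands, AGGTCA, a half-site of nuclear receptors that include retinoic acid receptors, was in 7 of 24 windows (29.2%; 16.3% of all promoters), those of Hoxa5, Hoxb4, Hoxc4, Hoxd3, Hoxd4, Hoxd8 and Hoxd10. TTTATG, a caudal-type (CDX) motif, was in 5 windows (20.8%; 11.9% of all) and TGATTNAT, a joint PBX-HOX motif, in 2 (8.33%; 3.22% of all). None of the 3 motifs contains another, and a match is a description of the sequence only.

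Signals were weak. They are given as deposited (MAS5, linear, arbitrary units), and the median over all probe sets and arrays was 17.1. The brightest signal of any member was 81.6. On the heterozygous array without feeders only Hoxa5 and Hoxa9 of the 33 read above 17.1, whereas 59% of all genes did. These 2 were also the members above it on all 4 arrays (54.1% of all genes). The counts above that level were 7 for cells labelled null on gelatin, and 12 and 16 with feeders for heterozygous cells and cells labelled null. Across all genes the corresponding shares were 59.1%, 61.4% and 61.2%. In bulk samples, fewer cells of a type and less RNA per cell cannot be told apart.

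**Figure D1:**
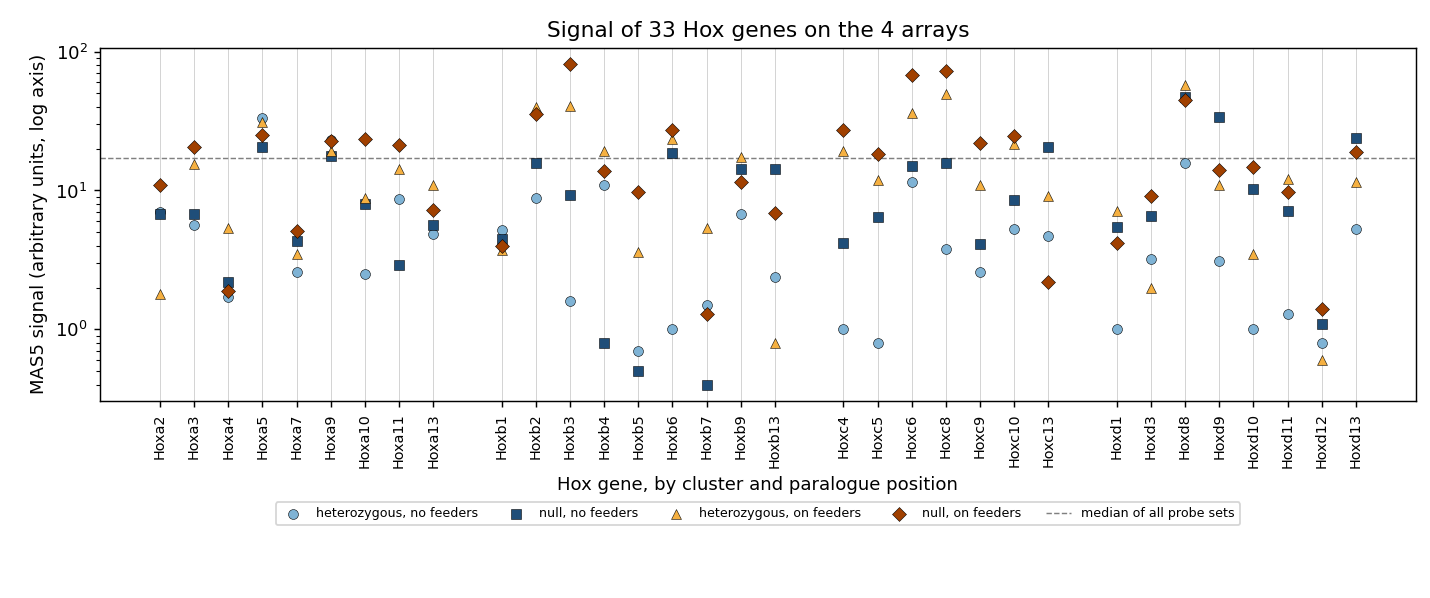
Signal of each of 33 Hox genes (x axis, by cluster and paralogue position) on the 4 arrays (y axis, MAS5 signal, log scale), with the median of all probe sets at 17.1 as a dashed line. Each point is 1 array. The heterozygous array without feeders (light circles) is the lowest of the 4 for 21 of the 33 genes.

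Sall4 itself, the gene named in the genotype, gave signals of 1126.5 and 1670.5 on gelatin and 780.8 and 1452.4 with feeders, heterozygous first and labelled null second. A second Sall4 probe set gave 147.2 and 380.5 on gelatin and 88.6 and 218.8 with feeders. Both were thus higher on the arrays labelled null. Where they lie relative to the deletion is not given in the sources used here, so these signals do not check the genotype, and the direction of each genotype difference rests on the labels. ES cell markers summed to between 18465 and 23791 on the 4 arrays, so ES cell RNA was abundant in each. The summed signal of the fibroblast markers over 36 genes read was 6704 and 15165 on gelatin and 35834 and 46138 with feeders, heterozygous and labelled null. Postn and Col1a1 read 1.4 and 1.5 on the heterozygous array without feeders, but other markers of the list were bright there, Vim at 1730.3 and Fn1 at 1350.8.

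The first comparison asked which Hox genes differed with feeders. Hoxb3, Hoxc4, Hoxc6, Hoxc8 and Hoxc10 were at least 2.20-fold brighter on feeders in both genotypes, and Hoxb3 stood 7.34-fold and 6.20-fold higher. A gene was counted as higher when it differed at least 2-fold on the log2(signal + 4.6) scale and its brighter array was above 17.1. Folds below are on that scale, which draws weak signals towards 1. By this rule 8 of 33 members were higher on feeders in heterozygous cells and 0 lower, where the rule called 5.63% of all genes higher and 1.24% lower. In cells labelled null, 10 of 33 were higher and 2 lower, against 4.63% and 1.73% of all genes. Among 10453 genes no brighter on any array than the brightest Hox signal, the shares called higher were 4.65% and 4.14% and those lower 1.12% and 1.41%. With 1 array against 1, these counts have no test.

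Over all 33 members the median log2 difference was 0.72 for heterozygous cells and 0.30 for those labelled null, against 0.02 and 0.03 over all genes. Values above 0 were seen for 26 and 24 of the 33. For 16 members (48.5%) both arrays on feeders read above both without feeders, which held for 24.1% of all genes, and for Hoxb1 alone the reverse held (19.9% of all genes). The fibroblast markers moved with these genes. Of 36 read, 33 reached 2-fold with feeders among heterozygous arrays and 29 among arrays labelled null, with 0 and 1 lower. Among all genes 5.63% and 4.63% were called higher, and 1.24% and 1.73% lower. The part of feeder RNA in the Hox differences was not tested.

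By limma with genotype and feeders as terms, adjusted over 12485 genes, Hoxb3, Hoxc8 and Hoxc6 rose on feeders. They were 3 of the 14 members that passed the filter on low signal, in a test that called 3.88% of genes higher and 0.881% lower. At an unadjusted p under 0.05, 8 of the 14 were higher and 0 lower, where 14.1% and 7.77% of genes were. The other 19 members were too weak to be tested, and the 14 passed in part through their brighter arrays. Shares of these 14, such as 3 or 8, are therefore no measure for the family. The 1 residual degree of freedom is the difference between the feeder effects in the 2 genotypes.

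Hoxb3, which patterns the hindbrain and neck region, gave 1.6 and 9.3 on gelatin and 40.9 and 81.6 with feeders (heterozygous, then labelled null). Both feeder arrays lay above both others, and the 2 pairs were 7.34-fold and 6.20-fold apart. The log2 difference in the fit was 2.75 (SE 0.29, adjusted p = 0.00816 by limma). Hoxb3's adjusted p ran from 0.00713 to 0.0777 over 10 alternatives, and the highest came from the model with feeders as its only term.

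Hoxc8, a gene of the thoracic region, read 3.8 and 15.7 on gelatin and 49.4 and 72.7 with feeders. The groups did not overlap, and the fitted log2 difference was 2.31 (SE 0.31, adjusted p = 0.0171 by limma). The adjusted p of Hoxc8 ran from 0.0123 to 0.0984 over 10 alternatives, and the call was lost with no filter, no variance trend or the model with 1 term. Its neighbour Hoxc6, also thoracic, read 11.6 and 14.9 on gelatin and 36.0 and 68.0 with feeders. Hoxc6 differed by 1.61 on the log2 scale (SE 0.28, adjusted p = 0.0382 by limma), a call that held in 4 of 10 alternatives (adjusted p from 0.0364 to 0.115).

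The remaining Hoxc genes went the same way without a call by limma, save the most posterior. Hoxc4, a gene of the neck region, read 1.0 and 4.2 on gelatin and 19.3 and 27.1 with feeders, 4.27-fold and 3.60-fold apart. Hoxc5 read 0.8 and 6.4 on gelatin and 11.9 and 18.3 with feeders. Its other probe sets were weaker, at 0.5 and 1.0 on gelatin and 1.2 and 3.7 with feeders for one, and at 2.3, 1.1, 0.7 and 9.6 for the other, which did not separate by feeders. On the mean of the 3 the Hoxc5 difference was 0.47 for heterozygous cells and 0.98 for those labelled null, where the call was lost. Hoxc9, which sets thoracic identity in motor neurons, read 2.6 and 4.1 on gelatin and 11 and 22.0 with feeders. For each of these, on the main probe set, the feeder arrays lay above both others. Hoxc4, Hoxc5 and Hoxc9 were under the filter and not tested. Hoxc10, a gene of the lumbar region and hindlimb, read 5.3 and 8.6 on gelatin and 21.6 and 24.5 with feeders, with a fitted log2 difference of 1.27 (SE 0.33, adjusted p = 0.100 by limma).

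Within the Hoxb cluster, Hoxb2, a hindbrain gene, read 8.9 and 15.8 on gelatin and 40.0 and 35.4 with feeders. Its fitted log2 difference of 1.35 (SE 0.32) did not pass (adjusted p = 0.0787 by limma). Hoxb6, a trunk gene, read 1.0 on the heterozygous array without feeders and 18.5, 23.4 and 27.1 for cells labelled null on gelatin and, with feeders, for heterozygous and labelled-null cells. It was therefore 5.00-fold higher on feeders in heterozygous cells but 1.37-fold higher in cells labelled null. The other 6 Hoxb genes read (Hoxb1, Hoxb4, Hoxb5, Hoxb7, Hoxb9 and Hoxb13) lay between 0.4 and 19.1 on all arrays.

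In the Hoxa cluster the calls were confined to cells labelled null under the main choice of probe sets. Hoxa3, a gene of the pharyngeal arches and thymus, read 5.6 and 6.8 on gelatin and 15.5 and 20.5 with feeders. Hoxa10 and Hoxa11, both needed in the uterus and limb, read 2.5 and 8.0, and 8.7 and 2.9, without feeders. On feeders Hoxa10 read 8.8 and 23.4 and Hoxa11 14.3 and 21.4. In all 3 genes the array labelled null on feeders was the brightest. The Hoxa3 difference did not hold on the mean of its 4 probe sets, where it was -0.067 on the log2 scale in cells labelled null. Hoxa10 also lost its call there on the mean of its 2 probe sets, where the difference was 0.74 in place of 1.15. Hoxa2, Hoxa4, Hoxa7 and Hoxa13 stayed between 1.7 and 11 on all arrays.

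For Hoxa5 and Hoxa9 the answer depended on the probe set. Hoxa5, needed for lung and cervicothoracic development, had as its main probe set one marked x_at, which can bind several transcripts and read 33.5 and 20.4 on gelatin and 31.0 and 25.1 with feeders. Its other probe set read 0.8 and 7.5 on gelatin and 42.9 and 50.5 with feeders. The former shows no separation by feeders, whereas the latter separates the arrays fully. Without probe sets marked x_at or s_at, Hoxa5 had a log2 difference of 2.66 (adjusted p = 0.0165 by limma), against 0.08 (adjusted p = 0.899) in the main fit. Hoxa9, a regulator of blood stem cells, was read at 23.0 and 17.6 on gelatin and 19.1 and 22.6 with feeders, and its second probe set gave 1.5 and 9.0 on gelatin and 29.1 and 46.3 with feeders. Hoxa9's main probe set was the brighter by mean log2 signal and the second by mean linear signal (20.6 and 21.5), and with the second the log2 difference was 2.19 (adjusted p = 0.0258 by limma).

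**Figure D2:**
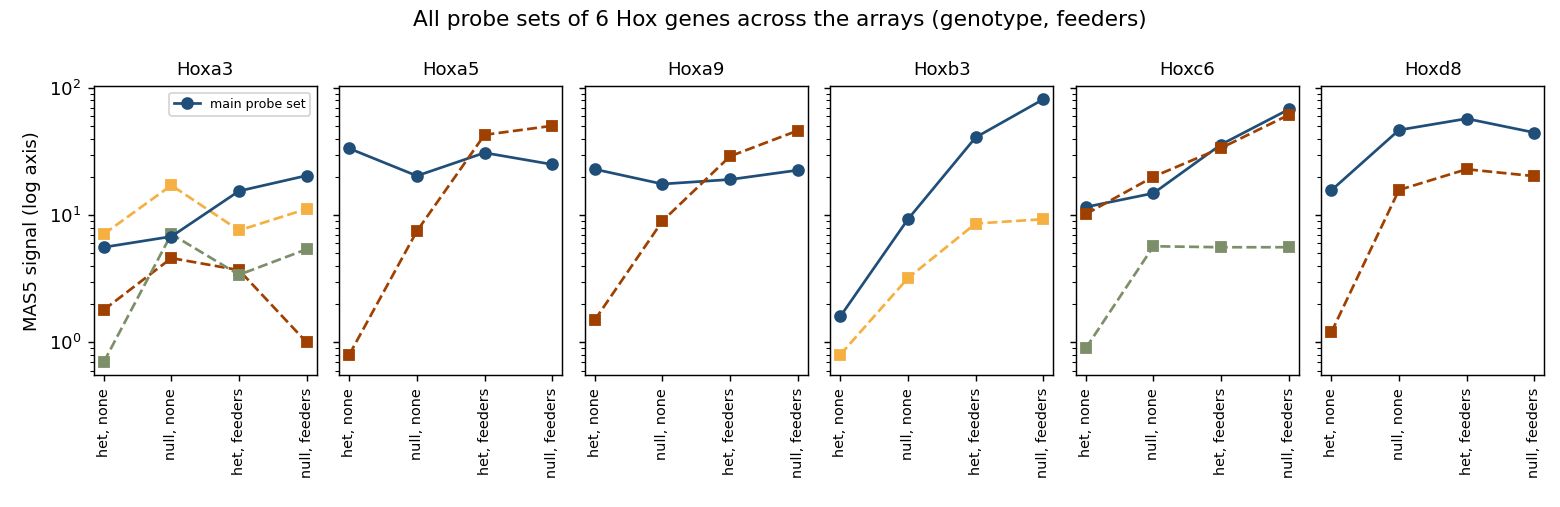
MAS5 signal (y axis, log scale) of every probe set of 6 Hox genes on the 4 arrays (x axis, genotype and feeders), with the main probe set of each gene as a solid line. The lines join arrays of 1 probe set and imply no order. For Hoxa5 and Hoxa9 the second probe set is below 10 on both arrays without feeders and above 29 on both with feeders, while the main probe set stays near its level throughout.

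Other genes with several probe sets differed in how far these matched. Both Hoxb3 probe sets were higher on feeders, at 0.8 and 3.2 without and 8.6 and 9.3 with feeders for the weaker. The second Hoxc6 probe set read 10.2 and 20.1 on gelatin and 33.8 and 61.5 with feeders, close to the main probe set, and the third 5.7 or less. Of the 4 Hoxa3 probe sets, only the main one had both feeder arrays above both others. The second Hoxa10 probe set read 0.9 and 1.8 on gelatin and 1.0 and 3.4 with feeders, so its heterozygous pair differed by 0.03 on the log2 scale, against 0.92 for the main one. Hoxb4 in cells labelled null differed by 1.77 with feeders on one probe set and by -0.07 on the other.

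The Hoxd cluster differed in that the array labelled null without feeders was about as bright as the arrays on feeders. Hoxd8, a trunk gene, read 15.7 on the heterozygous array without feeders and 46.8, 57.5 and 44.7 for cells labelled null on gelatin and, with feeders, for heterozygous and labelled-null cells. Its second probe set was also lowest on the first of these, at 1.2, and read 15.8, 23.0 and 20.3 on the others. Hoxd9 was brightest without feeders in cells labelled null: it read 3.1 and 34.0 on gelatin and 10.9 and 14.1 with feeders. It was 2.06-fold lower on feeders in cells labelled null and 2.01-fold higher in heterozygous cells, though the latter arrays were both below 17.1. Hoxd1, Hoxd3, Hoxd10, Hoxd11 and Hoxd12 lay between 0.6 and 14.8 on all arrays.

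The second comparison asked how cells labelled null differed from heterozygous cells. Without feeders, 5 of 33 members, Hoxb6, Hoxc13, Hoxd8, Hoxd9 and Hoxd13, were at least 2-fold higher in cells labelled null and 0 lower, where the rule called 2.76% of all genes higher and 2.15% lower. On feeders, Hoxa10 alone was higher (2.09-fold) and 0 were lower, against 1.08% and 1.62% of all genes. Among the genes no brighter than the brightest Hox signal, 1.95% were higher and 2.19% lower without feeders, and 1.1% and 1.6% on feeders. The median log2 difference over the 33 members was 0.52 without feeders and 0.26 on feeders, against 0.00 and 0.01 over all genes. Values were above 0 for 25 members without feeders and 22 on feeders. The genotype comparison without feeders and the feeder comparison in heterozygous cells share the heterozygous array without feeders, on which 21 members (63.6%; 27.9% of all genes) had their lowest signal.

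**Figure D3:**
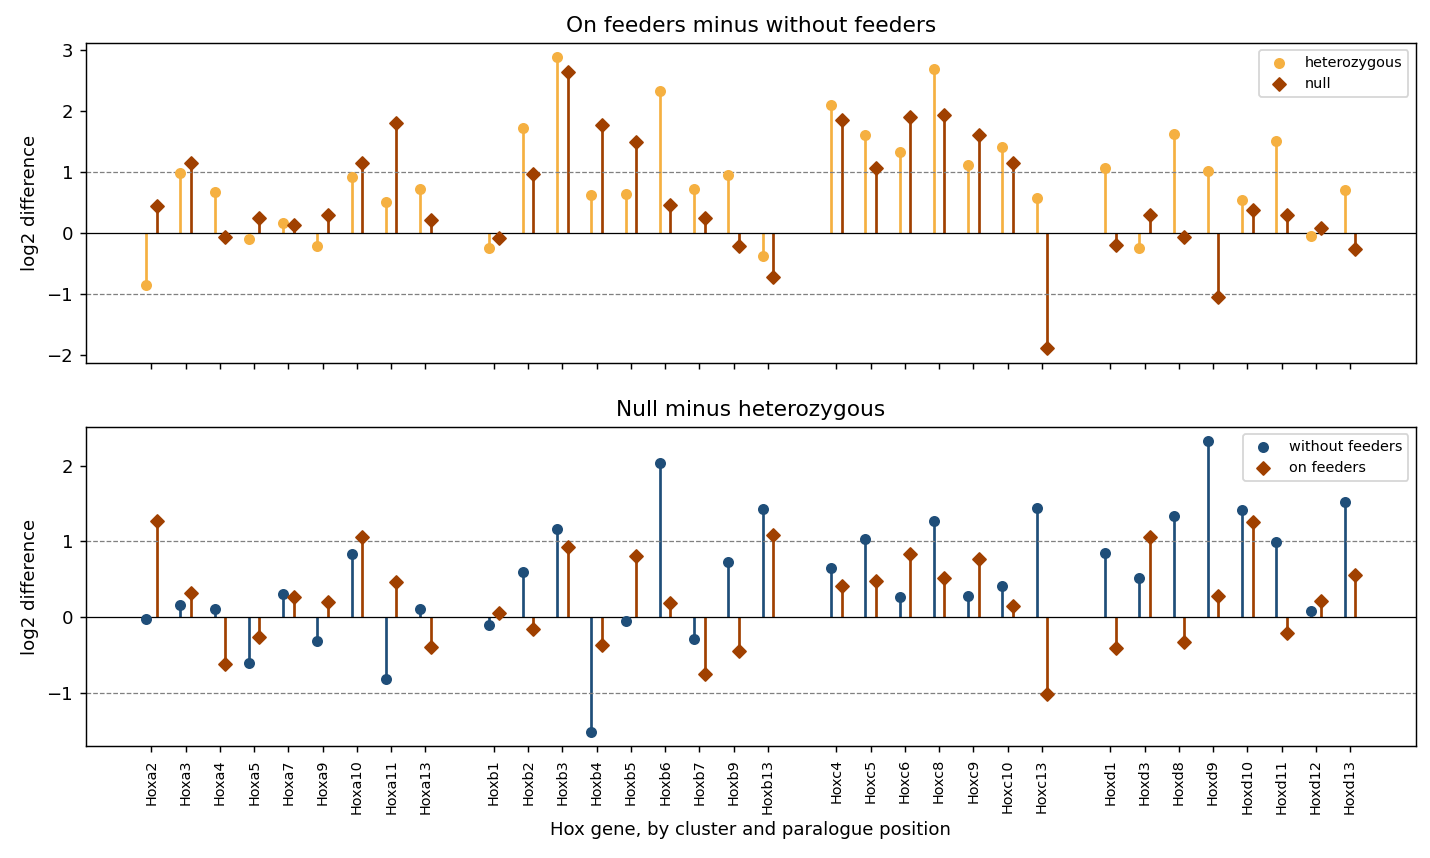
Log2 difference (y axis, log2(signal + 4.6) scale) of each Hox gene (x axis) on feeders against without feeders in each genotype (upper panel) and in cells labelled null against heterozygous cells in each feeder condition (lower panel). Each point is 1 array against 1, and dashed lines mark 2-fold. In heterozygous cells the differences on feeders are largest for Hoxb3 and Hoxc8, and the genotype difference without feeders is largest for Hoxd9, at 2.33.

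By limma 0 of 14 tested members changed between genotypes after adjustment over all genes. The test called 0.032% of genes lower and 0 higher in cells labelled null. At an unadjusted p under 0.05, 3 of the 14 were higher in cells labelled null, Hoxb3, Hoxc8 and Hoxd13, where 5.8% of genes were higher and 6.5% lower. Hoxd13, which patterns digits and the genital tubercle, read 5.3 and 23.7 on gelatin and 11.5 and 19.0 with feeders, with a fitted log2 difference of 1.03 (SE 0.38, adjusted p = 0.372 by limma). Both arrays labelled null lay above both heterozygous ones. Its second probe set, at 0.7 and 7.1 on gelatin and 5.9 and 8.5 with feeders, was likewise higher on both arrays labelled null. Without feeders the probe sets differed by 1.515 and 1.142 on the log2 scale. On the mean of both, Hoxd13 was no longer called without feeders, a loss through the signal minimum. Hoxd9 had the largest fitted genotype difference of the 14, 1.30 (SE 0.54, adjusted p = 0.419 by limma).

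Hoxc13, a gene of hair and nail, differed in opposite directions, at 4.7 and 20.6 on gelatin and 9.2 and 2.2 with feeders. Members with both arrays labelled null above both heterozygous arrays numbered 7 (21.2%; 15.7% of all genes): Hoxa7, Hoxb13, Hoxd3, Hoxd9, Hoxd10, Hoxd12 and Hoxd13. Of these 7, Hoxd9 and Hoxd13 exceeded 17.1 on at least 1 array. The reverse order was seen for Hoxa5 and Hoxb7 (6.06%; 16.4% of all genes).

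Fibroblast markers also differed between genotypes without feeders. Of 36, 19 were at least 2-fold higher in cells labelled null and 0 lower, where 2.76% of all genes were higher and 2.15% lower. The summed signal of the 36 was 2.26-fold higher, against 1.91-fold for the 33 Hox genes. On feeders both sums were 1.29-fold higher in cells labelled null. Without feeders the fibroblast sums rest largely on a few bright genes, among them Vim (1730.3 and 4448.5) and Fn1 (1350.8 and 1835.4). Median log2 differences without feeders were 1.26 for the markers and 0.52 for the Hox genes, and on feeders 0.45 and 0.26. Col1a1 read 1.5 and 36.0 on gelatin and 626.6 and 1135.6 with feeders, so this marker was well below its feeder level on both arrays without feeders. In cells labelled null, 34 of the 36 were lower without feeders than with them. The exceptions were Vim, at 4448.5 without and 4317.3 with feeders, and Tgfbi, at 420.4 and 173.8. Whether fibroblast RNA contributed to the Hox difference between genotypes was not tested.

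By cluster, the summed signal without feeders was 0.834 times the heterozygous level in cells labelled null for Hoxa (9 genes), 2.01 times for Hoxb (9), 2.50 times for Hoxc (7) and 4.30 times for Hoxd (8). In cells labelled null, the sum without feeders was 0.540, 0.409 and 0.317 times that on feeders for Hoxa, Hoxb and Hoxc, but 1.15 times for Hoxd. The same ratio was 0.329 for fibroblast markers, of which 34 of 36 were lower without feeders. The Hoxd ratio of 1.15 rests on 1 array against 1 and largely on Hoxd9, and the Hoxa sums rest largely on the main probe sets of Hoxa5 and Hoxa9.

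**Figure D4:**
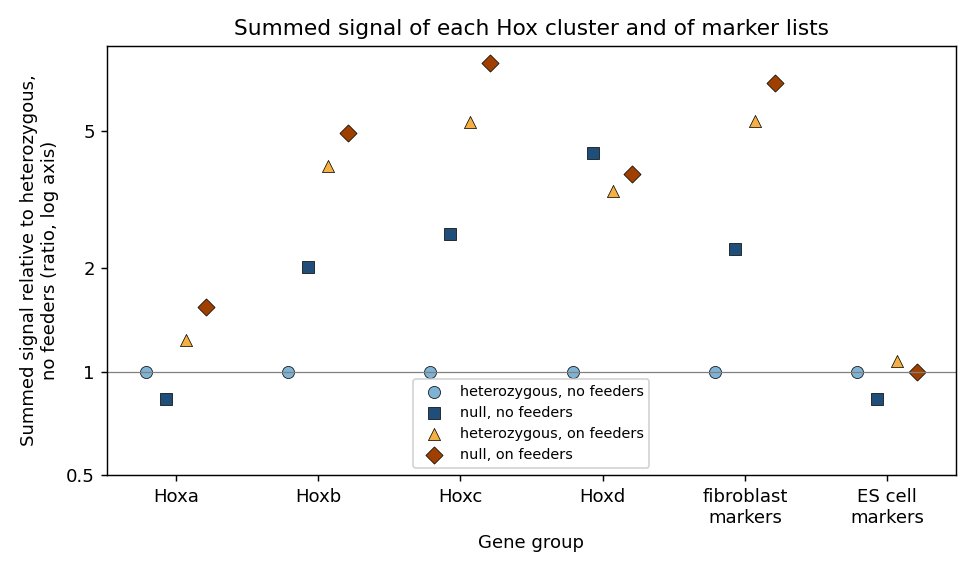
Summed signal of the genes of each Hox cluster and of the fibroblast and ES cell marker lists (x axis), relative to the heterozygous array without feeders (y axis, ratio on a log scale). Each point is 1 array. Hoxa, Hoxb, Hoxc and the fibroblast markers are highest on feeders. Hoxd is highest on the array labelled null without feeders, at 4.30 times the heterozygous level.

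Along the paralogue axis, central members (positions 4 to 8, 12 genes) had 5 and 4 genes called higher on feeders in the heterozygous and labelled-null pairs. For anterior members (positions 1 to 3, 7 genes) these counts were 2 and 2, and for posterior members (positions 9 to 13, 14 genes) 1 and 4. Only posterior genes were also called lower, 2 in cells labelled null (Hoxc13 and Hoxd9). Over all genes 5.63% and 4.63% were called higher. Without feeders, 3 of 14 posterior, 2 of 12 central and 0 of 7 anterior genes were called higher in cells labelled null. The share over all genes was 2.76%. Median log2 genotype differences without feeders were 0.78 for posterior, 0.29 for central and 0.52 for anterior genes. The difference between these classes was not tested.

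Genes of the Hox pathway outside the clusters were read next. The TALE homeodomain proteins of the Pbx, Meis and Pknox families bind DNA together with Hox proteins. Of 8 read, Meis2 alone was higher on feeders among heterozygous arrays and 0 among arrays labelled null, where 5.63% and 4.63% of all genes were. Without feeders 3 were higher in cells labelled null (2.76% of all genes) and 0 lower: Meis2 at 14.6 and 70.4, Meis1 at 28.7 and 72.0 and Pknox2 at 16.8 and 39.6. On feeders Meis2 read 55.5 and 63.7, Meis1 23.9 and 44.9 and Pknox2 19.0 and 22.4. By limma 0 of 7 tested TALE genes changed with feeders or genotype. Of all genes tested, 3.88% were higher and 0.881% lower on feeders, and 0 higher and 0.032% lower in cells labelled null.

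Among 21 caudal and retinoid genes read, which act upstream of Hox genes, 12 were tested by limma. It called Crabp1 higher on feeders and Cdx2 lower, where 3.88% of genes tested were higher and 0.881% lower. By the 2-fold rule 2 and 3 of the 21 were higher on feeders (heterozygous, labelled null), with 0 and 2 lower. Over all genes 5.63% and 4.63% were higher and 1.24% and 1.73% lower. Without feeders 2 were higher in cells labelled null and 0 lower, against 2.76% and 2.15% of all genes. Crabp1, a cytoplasmic retinoic acid binding protein, read 48.5 and 35.3 on gelatin and 550.5 and 622.3 with feeders (adjusted p = 0.0014 by limma). Cdx2, an activator of central and posterior Hox genes, read 17.1 and 82.2 on gelatin and 2.1 and 4.9 with feeders (log2 difference -2.44, adjusted p = 0.043 by limma). Aldh1a3, which makes retinoic acid, read 12.8 and 38 on gelatin and 1.0 and 11.3 with feeders (adjusted p = 0.0722 by limma).

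Chromatin regulators of the clusters were read as well. Among all genes 5.63% and 4.63% were higher on feeders. In cells labelled null, 2.76% of all genes were higher without feeders and 1.62% were lower on feeders. Of 20 Polycomb genes read, Phc3 alone was higher on feeders, in heterozygous cells, and Bmi1 and Phc2 were higher in cells labelled null without feeders, at 93.0 and 223.3 and at 196.6 and 456.6. Phf19 was lower in cells labelled null on feeders. Summed Polycomb signal was 0.938 times the heterozygous level in cells labelled null without feeders and 0.981 times on feeders. Of 12 trithorax and demethylase genes, 0 differed 2-fold in any pair, and by limma 0 of 20 and 0 of 12 genes changed with either factor. Among all genes tested, limma called 3.88% higher and 0.881% lower on feeders.

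Genes that flank the clusters were read too. Of 14 flanking and antisense genes read, 1 was higher on feeders in each genotype, with 0 lower for heterozygous cells and 2 for those labelled null. Over all genes 5.63% and 4.63% were higher and 1.24% and 1.73% lower. The genes lower in cells labelled null were Evx1 and Calcoco2, the latter at 301.8 and 340.5 on gelatin and 217.4 and 131.5 with feeders. The higher one was Hoxb5os, an antisense gene of the Hoxb cluster. It read 9.7 and 20 on gelatin and 53.1 and 68.8 with feeders (log2 difference 1.79, adjusted p = 0.0221 by limma), while Hoxb5 itself read 0.7 and 0.5 and then 3.6 and 9.8. Hoxa11os read 1.7 and 1.3 on gelatin and 15.2 and 7.7 with feeders. Of genes singled out after their values were seen, Mtx2 and Lnpk, outside the Hoxd cluster, read between 280.9 and 321.1 and between 173.9 and 213.1. Next to Hoxa, Skap2 read between 316.4 and 380.0. Hibadh, on the other side of Hoxa, varied more, at 687.7 and 454.4 on gelatin and 1030.8 and 702.0 with feeders (adjusted p = 0.0524 by limma for feeders). Evx1, the homeobox gene at the posterior end of the Hoxa cluster, read 9.3 and 17.7 on gelatin and 5.0 and 5.2 with feeders.

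Positional factors of trunk and limb mesenchyme, read as 30 genes, were higher on feeders for 7 for heterozygous cells and 4 for those labelled null, with 0 and 3 lower, where 5.63% and 4.63% of all genes were higher and 1.24% and 1.73% lower. By limma 3 of 16 tested (3.88% of all genes tested) rose on feeders, Tbx15, Zfhx4 and Prrx2. The 16 passed the filter on low signal in part through their brighter arrays, so the share of 3 in 16 is no measure for the list. Tbx15, a T-box factor of trunk skin and skeleton, read 5.1 and 9.5 on gelatin and 35.8 and 64.6 with feeders (adjusted p = 0.0163 by limma). Msx2 instead read 35.3 and 127.7 on gelatin and 39.1 and 24.5 with feeders. Without feeders 5 of the 30 were higher in cells labelled null (2.76% of all genes) and 0 lower. The 5 homeobox genes of the same class outside the clusters (Gsx1, Gsx2, Pdx1, Gbx1 and Mnx1) were below 17.1 on all arrays.

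Markers of other cell types were read beside the Hox genes. Summed signal of 7 early neural genes was 178.5 and 240.9 on gelatin and 130.7 and 257.8 with feeders, and of 7 early mesoderm genes 99 and 77.0, then 87.1 and 52.1. For 6 endothelial genes it was 252.1 and 144.5, then 200.7 and 161.2. For 8 macrophage and blood genes it was 166.6 and 129.4, then 335.0 and 321.1, of which Lyz2 read 1.6 and 8.6 on gelatin and 141.6 and 168.3 with feeders. In cells labelled null without feeders, where Hoxd9 was highest, the neural sum was 1.35 times and the mesoderm sum 0.778 times the heterozygous level. Of the 7 neural genes, 2 were at least 2-fold higher in cells labelled null without feeders and 3 on feeders, with 0 lower. Of all genes, 2.76% and 1.08% were higher and 2.15% and 1.62% lower. Below 17.1 on all arrays were 3 of 8 macrophage and blood, 3 of 6 endothelial, 2 of 7 neural and 5 of 7 mesoderm markers. That held for 33.7% of all genes. The part of any of these in the Hox values was not tested.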

How the data were processed

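The authors deposited linear MAS5 signal intensity values for 45101 probe sets on 4 arrays, 1 per group, per the submitters' processing notes; no MAS5 version or detection call is in the sources used here. In the files every array has a 2% trimmed mean of 100; no further scaling was applied. The number of arrays limits the precision. The 64 control probe sets were left out. The probe annotation gave 34945 probe sets with 1 symbol, 932 with several and 9160 not listed; only the first were used. One probe set stood for each gene, the brightest by mean log2(signal + 4.6); the offset of 4.6 is the 25th percentile over the 4 arrays. For Hoxa9 a mean of linear signals would choose the other probe set.

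limma 3.58.1 in R 4.3.3 (lmFit, eBayes with trend, terms for genotype and feeders) was fitted to 12485 genes above the 40th percentile of mean log2 signal, with 1 residual and 4.75 prior degrees of freedom. Tests were two-sided, with Benjamini-Hochberg adjustment over all genes and a threshold of 0.05. On simulated data with 12485 genes the feeder test recovered 59.1% of genes changed by log2 1 and 99.8% of those changed by 2. Mean false calls per run were 6.85 and 10.7. The simulated noise was normal with 1 SD per band of signal, and recovery was averaged over all signal levels. It therefore does not measure recovery for weak genes such as the Hox members. Pairs of arrays were compared by size with no test. Members were described singly if a pair was called or all 4 arrays read above the median. Up to 4 genes of each other list with the largest differences were named. Lnpk, Mtx2, Skap2, Hibadh, Prrx2, Gbx1, Hoxb5, Hoxd3os1, Vim, Fn1 and Tgfbi were added after their values were seen. Members and lists were chosen with earlier results of these data known. Alternatives changed the offset, scaling, probe set rule, filter, fold, variance trend and model terms; 2 probe set rules were added after seeing the data.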

Additional observations from a re-analysis of the deposited data

Results flagged for a closer look

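For 2 members the difference went opposite ways, by at least 2-fold each, in the 2 conditions of the other factor. Hoxd9 was higher on feeders in heterozygous cells (3.1 to 10.9) and lower in cells labelled null (34.0 to 14.1), an interaction of -2.06 on the log2 scale. Hoxc13 was higher in cells labelled null on gelatin (4.7 and 20.6) and lower with feeders (9.2 and 2.2), an interaction of -2.46. With the offset at the median signal neither stayed 2-fold both ways: Hoxd9 was 0.47 and -0.71 with feeders, and Hoxc13 0.79 and -0.45 in cells labelled null. Each rests on 4 single arrays, and the difference was not tested.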

How the results depend on the processing

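No paired analysis was possible because each group had 1 array and the labels give no replicate numbers; the limma fit does compare feeders within each line, and without that term all 3 feeder calls were lost. Of 58 recomputed counts, 43 stayed within 1.5 times the main count. With an offset at the median signal, the members higher on feeders in cells labelled null numbered 4 with 0 lower, and those higher in cells labelled null 1 without and 0 on feeders. Quantile normalization and the mean of all probe sets each gave 0 higher in cells labelled null on feeders, against Hoxa10 alone in the main setting. A 3-fold threshold gave 6 higher on feeders in cells labelled null and 2 and 0 higher in cells labelled null without and on feeders. With no signal minimum, 13 were higher on feeders in heterozygous cells, and 10 and 5 were higher in cells labelled null without and on feeders. The limma count of 3 with feeders became 1 with no filter or no variance trend, and 0 with the model of 1 term or the filter at the 60th percentile, where Hoxd8 was the 1 member tested. Hoxa3 in cells labelled null reversed to -0.067 on feeders with the mean of probe sets. The 2 probe set rules added after seeing the data each gave 4 by limma with feeders. The cause was not tested. Medians over the members ranged from 0.37 to 1.32 (feeders, heterozygous), 0.19 to 0.48 (feeders, labelled null), 0.22 to 0.86 (genotype without feeders) and 0.13 to 0.38 (genotype on feeders). Most member signals lay under the median signal of 17.1, which limits every fold given.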

Other observations

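Within the Hoxd cluster an antisense gene, Hoxd3os1, singled out after its values were seen, read 4.2 and 15.3 on gelatin and 8.6 and 19.8 with feeders by its brighter probe set, heterozygous and labelled null. Both arrays labelled null were above both heterozygous ones, as for Hoxd3, Hoxd9, Hoxd10 and Hoxd13, but its other probe set read 9.9 and 5.9, then 3.8 and 6.6.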
